A study of Macaca mulatta with 2 samples.

Results

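Glycolysis splits glucose into pyruvate, and lactate dehydrogenase turns pyruvate into lactate. Here 10 genes of this path were followed across the layers of the macaque eye wall: the hexokinase gene HK1, the phosphofructokinase gene PFKM, the aldolase genes ALDOA and ALDOC, the phosphoglycerate kinase gene PGK1, the enolase genes ENO1 and ENO2, the pyruvate kinase gene PKM, and the lactate dehydrogenase genes LDHA and LDHB. Members were chosen by gene symbol, and 9 of the 10 have a row with their symbol among the 26533 genes and transgenes of the count matrices. PKM was not analysed here. The measurements come from Visium sections of 2 male rhesus macaques of 5 years (NHP1) and 6 years (NHP2), with 1 section per animal. Visium lays a tissue section on a grid of barcoded spots that capture polyadenylated RNA, so that each molecule (UMI, a unique molecular identifier) is counted at its spot. Each spot covers a small area, so several cells of different types can contribute to it. Both sections were uninjected areas of the right eye, from full-thickness punches of 4 mm through retina, choroid and sclera, cut at 10 μm. The same eyes had received subretinal vector elsewhere, voretigene neparvovec in NHP1 and AAV8-GRK1-hRPGRco and AAV8-GRK1-mScarlet in NHP2, and a triamcinolone injection, so that no eye was free of treatment.

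The retina is known for turning much of its glucose into lactate even when oxygen is present, and photoreceptors are held to be the main site. Several steps of the path have isoenzymes encoded by separate genes. ALDOC and ENO2 are the aldolase and enolase genes typical of neural tissue, ALDOA and ENO1 are the broadly used ones, and LDHA and LDHB encode the subunits that mix in the lactate dehydrogenase tetramer. Lactate is passed between photoreceptors, Müller glia and the retinal pigment epithelium (RPE) through monocarboxylate transporters.

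In the Mmul_10 assembly, the RefSeq annotation places HK1 (ENSMMUG00000015302) at chr9:68399609-68530029 on the minus strand and PFKM (ENSMMUG00000002045) at chr11:47665210-47711283 on the plus strand. ALDOA (ENSMMUG00000000983) lies at chr20:27285870-27292773 and ALDOC (ENSMMUG00000020322) at chr16:24196623-24200774, both on the minus strand. PGK1 (ENSMMUG00000012874) lies at chrX:74831778-74854505, ENO1 (ENSMMUG00000053002) at chr1:215627773-215645190 and ENO2 (ENSMMUG00000009443) at chr11:7084725-7094977, all on the plus strand. LDHA (ENSMMUG00000031024) lies at chr14:47176916-47189970 and LDHB (ENSMMUG00000002679) at chr11:23007599-23030687, both on the minus strand. The ENO2 interval overlaps LRRC23 on the same strand, and the ALDOA interval overlaps LOC114674356 on the same strand. The PFKM interval overlaps SENP1 and MIR6505, 1 of them on the same strand.

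ACGTG is the core of the element through which hypoxia-inducible factor acts on glycolysis genes. It was searched on both strands (as ACGTG or CACGT) in the 250 bases before each annotated gene start. Of the members counted, LDHA held 3 matches, PGK1 2, ALDOA 1 and LDHB 1, and HK1, PFKM, ALDOC, ENO1 and ENO2 held none. Of 21102 such windows in the assembly, 3860 (18.3%) held a match. The windows of PGK1 and LDHA, which held the most matches, are printed here 5′ to 3′ on the gene's strand. That of LDHB is added as the other gene of the lactate dehydrogenase pair. Capitals mark the matches, and 2 of those in LDHA overlap in the palindrome CACGTG.
PGK1, chrX:74831528-74831777, plus strand: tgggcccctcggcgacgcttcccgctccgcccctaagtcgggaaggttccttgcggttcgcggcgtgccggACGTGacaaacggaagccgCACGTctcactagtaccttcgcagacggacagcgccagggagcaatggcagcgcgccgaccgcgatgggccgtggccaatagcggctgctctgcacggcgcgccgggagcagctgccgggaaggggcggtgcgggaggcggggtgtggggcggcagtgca
LDHA, chr14:47189971-47190220, minus strand: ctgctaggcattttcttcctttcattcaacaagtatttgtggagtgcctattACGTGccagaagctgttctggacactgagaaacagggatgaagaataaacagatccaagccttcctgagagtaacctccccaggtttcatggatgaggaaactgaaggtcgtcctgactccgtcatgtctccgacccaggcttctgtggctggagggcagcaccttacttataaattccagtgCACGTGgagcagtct
LDHB, chr11:23030688-23030937, minus strand: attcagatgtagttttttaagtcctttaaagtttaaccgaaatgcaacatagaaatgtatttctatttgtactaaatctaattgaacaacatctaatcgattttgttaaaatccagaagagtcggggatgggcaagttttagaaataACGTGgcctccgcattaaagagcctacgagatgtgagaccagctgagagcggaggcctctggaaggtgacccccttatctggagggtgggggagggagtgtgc
These are matches of letters in a fixed window, and no factor's binding was measured.

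NHP1 had 534 tissue spots with 1484784 UMIs and NHP2 had 470 with 805726, and their median depth was 1473.5 and 370.5 UMIs per spot. Each spot was placed in a layer by its markers, and 4341 spot barcodes occur in both sections, 67 of them over tissue in both, as the slide's barcode set is shared. In NHP1 the photoreceptor layer took 119 spots, the inner nuclear layer 89 and the ganglion cell layer 58. In NHP2 these layers took 31, 19 and 15 spots. The layers were not pure: photoreceptor markers made up 342 of 10000 UMIs in the photoreceptor layer of NHP1 and 87.8 in its inner nuclear layer, against 346 and 82.6 in NHP2. Levels below are UMIs of a gene per 10000 UMIs of a layer, with exact 95% Poisson intervals. Ratios of 2 such levels have exact conditional binomial intervals and shares have Clopper-Pearson intervals. All of these cover counting error only, and with 1 section per animal no test between conditions was made. A higher level in a layer cannot be told apart from more cells of a type in its spots.

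The summed level of the 9 genes was higher in the neural retina than in the layers behind it, in both animals. It was 98.8 per 10000 (95.9 to 102) in the photoreceptor layer of NHP1, 89.2 (86.3 to 92.2) in the inner nuclear layer and 104 (100.1 to 108) in the ganglion cell layer. In NHP2 the same layers gave 85.1 (81.0 to 89.4), 79.1 (75 to 83.3) and 96.7 (92.4 to 101). Within the neural retina the inner nuclear layer was thus lowest in both sections. The sum was 73.7 in the RPE, 60.8 in the choroid and 61.8 in the sclera of NHP1. In NHP2 it was 59.1, 32.7 and 25.9. Spots outside the tissue carried 79.9 per 10000 in NHP1 and 72.6 in NHP2, more than any of these 3 outer layers of that section. A member's level is therefore not read as expression by a layer unless it exceeds its own level off tissue. This limit also touches the neural layers, although their sums were above those off tissue. For the inner nuclear layer of NHP2 the intervals overlapped (75 to 83.3 against 66.7 to 78.8 off tissue). In the inner nuclear layer, ENO2 had 19.2 in NHP1 and 17.6 in NHP2, against 21.5 and 22.1 off tissue. ALDOC in the photoreceptor and inner nuclear layers was also below its level off tissue in both animals. The same held for ENO1 in the photoreceptor layer (9.16 and 6.46, against 11.4 and 6.89). In NHP1 alone it held for photoreceptor layer PFKM (1.60 against 1.89) and ganglion cell layer HK1 (2.44 against 2.96). In NHP2 alone it held for PGK1 in the photoreceptor and inner nuclear layers (4.99 and 6.72 against 7.93). There it also held for ganglion cell layer ENO2 (19.6 against 22.1). Ratios below that use these levels carry this limit. Counted per spot, the inner nuclear layer held 8.52 and 16.7 ENO2 UMIs, against 0.263 and 0.0422 off tissue.

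**Figure D1:**
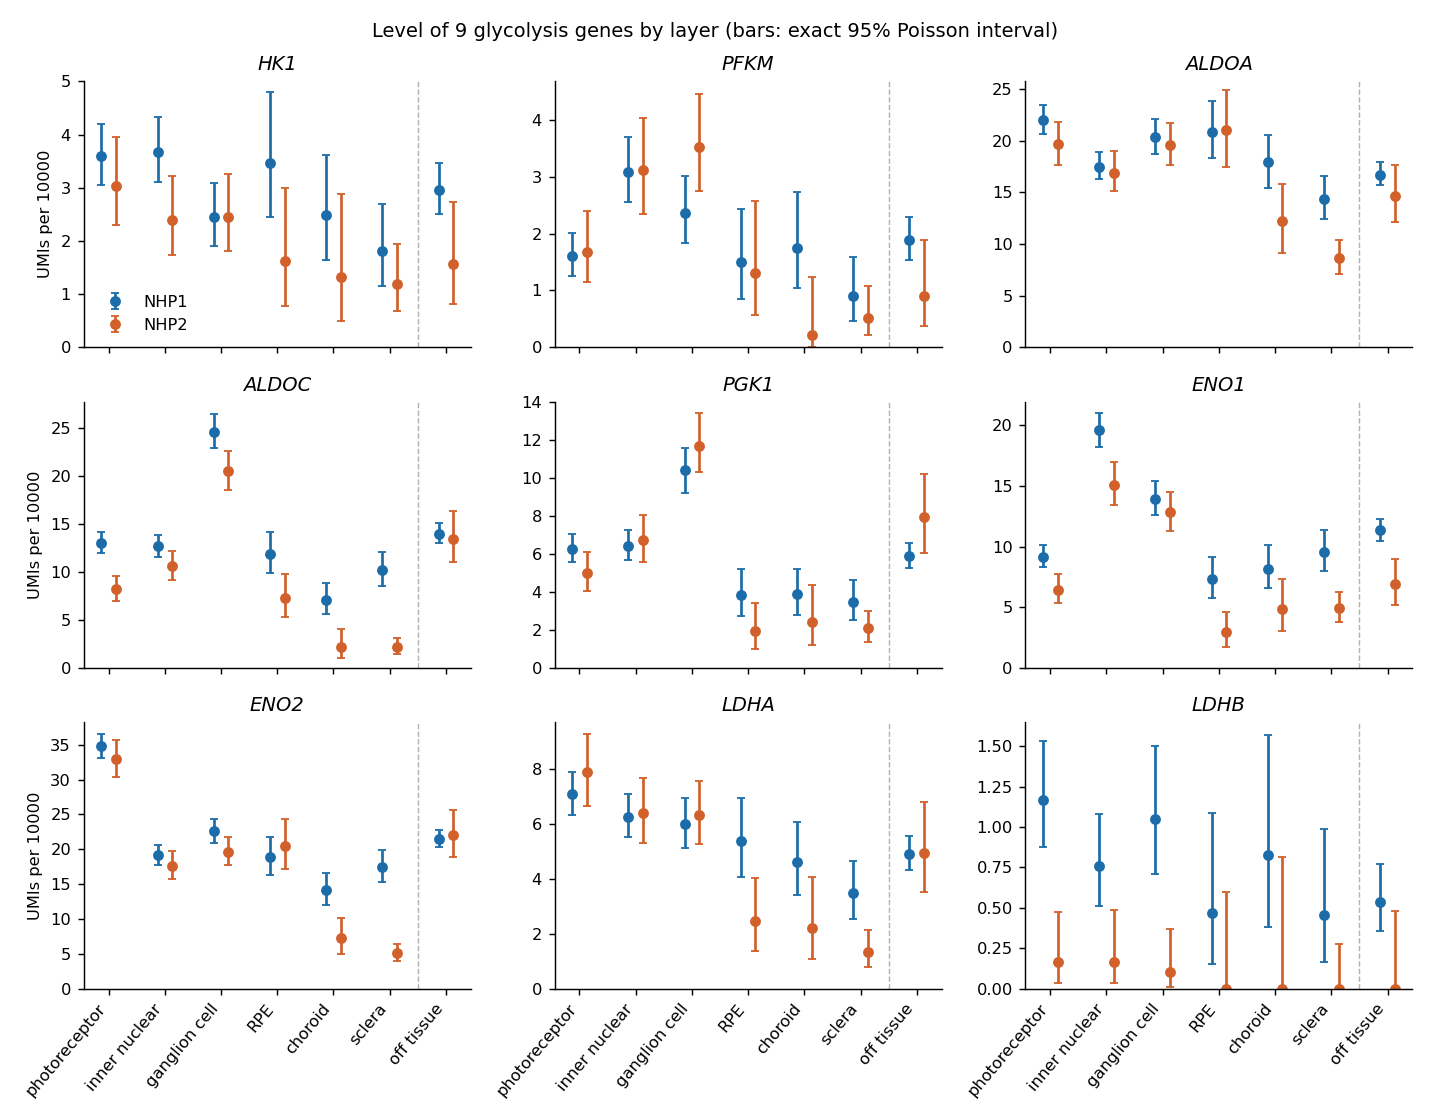
Level of each of the 9 genes (UMIs per 10000, y axis from 0) in the 6 layers and in spots off tissue (x axis) of NHP1 (blue) and NHP2 (orange), with exact 95% Poisson intervals as bars. ENO2 was highest in the photoreceptor layer, ENO1 in the inner nuclear layer, and ALDOC and PGK1 in the ganglion cell layer, in both sections.

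HK1 encodes hexokinase 1, which phosphorylates glucose and so keeps it in the cell. Its level was 3.60 per 10000 in the photoreceptor layer of NHP1, 3.67 in the inner nuclear layer and 2.44 in the ganglion cell layer. In NHP2 it was 3.04, 2.39 and 2.45. The ratio of the inner nuclear to the photoreceptor layer was 1.02 (0.809 to 1.28) in NHP1 and 0.786 (0.516 to 1.19) in NHP2, so no difference was detectable at this depth. Between the ganglion cell and the photoreceptor layer it was 0.679 (0.505 to 0.904) in NHP1 and 0.806 (0.536 to 1.21) in NHP2. HK2, which encodes another hexokinase and is no member, was the more uneven gene of the step: it made up 43.9% (38.0 to 49.8) of HK1 plus HK2 UMIs in the photoreceptor layer of NHP1 and 46.7% (36.9 to 56.7) in NHP2. Its share was 17.1% (11.9 to 23.6) and 10.4% (3.47 to 22.7) in the inner nuclear layer. The HK2 share was thus larger in the photoreceptor than in the inner nuclear layer of both animals, and in neither layer above that of HK1.

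PFKM encodes the muscle-type subunit of phosphofructokinase, the enzyme of the committed step. It was higher in the inner retina than in the photoreceptor layer of both sections. In NHP1 its level was 1.60 (1.25 to 2.01) in the photoreceptor layer, 3.09 (2.56 to 3.69) in the inner nuclear layer and 2.37 (1.84 to 3.01) in the ganglion cell layer. In NHP2 it was 1.68 (1.14 to 2.39), 3.11 (2.35 to 4.04) and 3.52 (2.74 to 4.46). The inner nuclear layer exceeded the photoreceptor layer 1.93-fold (1.43 to 2.63) in NHP1 and 1.85-fold (1.17 to 2.97) in NHP2. In regions found by unsupervised clustering of the spots (Leiden regions) in place of the marker calls, the NHP1 ratio was 1.29 (0.887 to 1.86), an interval that holds 1, and with equal weight per spot the ratios were 3.03 and 2.96. The liver and platelet subunit genes, PFKL and PFKP, are no members but share the step. PFKL took 62.0% of PFKM plus PFKL UMIs in the photoreceptor layer of NHP1 and 41.9% in the inner nuclear layer. In NHP2 these shares were 68.4% and 40.4%. PFKP took 65.5% and 39.9% of PFKM plus PFKP in the same layers of NHP1, and 61.2% and 23.3% in NHP2. PFKM thus had a larger part of the step in the inner nuclear than in the photoreceptor layer by either comparison.

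The aldolases cut fructose bisphosphate into triose phosphates. ALDOA differed less between the neural layers than ALDOC, which was high in the ganglion cell layer. ALDOA had 22.0 per 10000 (20.7 to 23.5) in the photoreceptor layer, 17.5 (16.3 to 18.9) in the inner nuclear layer and 20.4 (18.7 to 22.1) in the ganglion cell layer of NHP1. In NHP2 it had 19.7 (17.7 to 21.8), 16.9 (15.1 to 19.0) and 19.6 (17.7 to 21.7). The dip in the inner nuclear layer held within the counting intervals of NHP1 (ratio to the photoreceptor layer 0.796, 0.721 to 0.878) and not within those of NHP2 (0.860), whose interval began at 0.736 and reached 1. ALDOC had 13.0 (12.0 to 14.2), 12.7 (11.6 to 13.9) and 24.6 (22.9 to 26.5) in these layers of NHP1, and 8.20 (6.94 to 9.61), 10.6 (9.16 to 12.2) and 20.5 (18.6 to 22.6) in NHP2. The ganglion cell layer thus exceeded the inner nuclear layer 1.94-fold (1.73 to 2.18) in NHP1 and 1.93-fold (1.62 to 2.31) in NHP2, the 97.5th and 96.0th percentile of all genes compared.

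The aldolase share followed from this. ALDOC made up 37.2% (34.8 to 39.6) of the 1560 ALDOA plus ALDOC UMIs of the photoreceptor layer of NHP1, 42.0% (39.2 to 44.9) of 1195 in the inner nuclear layer and 54.8% (52.0 to 57.5) of 1289 in the ganglion cell layer. In NHP2 it made up 29.4% (25.5 to 33.5) of 514, 38.5% (34.2 to 42.9) of 496 and 51.1% (47.5 to 54.6) of 787. By these layer calls the order of the layers was the same in both animals, and of the 3 only the ganglion cell layer had more UMIs of ALDOC than of ALDOA, in NHP2 within the counting error of equal parts. In the Leiden regions of NHP1 the order of the photoreceptor and inner nuclear layers was turned, with ALDOC shares of 39.5% (37.1 to 41.9) and 34.9% (31.5 to 38.4), while the ganglion cell layer had 51.2% (49.0 to 53.4). Among single spots with at least 10 UMIs of the pair, the share in NHP1 ran from 12.9% to 72.7% around a median of 37.0% in 66 photoreceptor layer spots, and from 27.3% to 80.0% around 55.0% in 37 ganglion cell layer spots. In NHP2 it ran from 18.8% to 47.2% around 28.6% in 17 spots and from 41.3% to 73.1% around 52.6% in 8 spots. Single spots of the 2 layers therefore overlapped. A share is compared here between places and not read as a ratio of transcripts, since the capture of the 2 genes may differ.

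PGK1 encodes phosphoglycerate kinase, the first step of the path that yields ATP. Like ALDOC it was highest in the ganglion cell layer. Its level was 6.28 (5.56 to 7.06) in the photoreceptor layer, 6.43 (5.66 to 7.27) in the inner nuclear layer and 10.4 (9.22 to 11.6) in the ganglion cell layer of NHP1. In NHP2 it was 4.99 (4.03 to 6.13), 6.72 (5.58 to 8.03) and 11.7 (10.3 to 13.4). The ganglion cell layer exceeded the inner nuclear layer 1.61-fold (1.36 to 1.91) in NHP1 and 1.75-fold (1.39 to 2.19) in NHP2. It exceeded the photoreceptor layer 1.65-fold (1.40 to 1.95) and 2.35-fold (1.84 to 3.03). The ratio of the inner nuclear to the photoreceptor layer was 1.02 (0.861 to 1.22) for PGK1 in NHP1 and 1.35 (1.02 to 1.79) in NHP2.

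Enolase makes phosphoenolpyruvate. Its 2 genes peaked in different layers of the neural retina: ENO2 was highest in the photoreceptor layer and ENO1 in the inner nuclear layer, in both animals. ENO2 had 34.8 per 10000 (33.1 to 36.6) in the photoreceptor layer, 19.2 (17.8 to 20.6) in the inner nuclear layer and 22.6 (20.9 to 24.4) in the ganglion cell layer of NHP1. In NHP2 it had 33.0 (30.4 to 35.7), 17.6 (15.7 to 19.7) and 19.6 (17.7 to 21.7). ENO1 ran the other way. It had 9.16 (8.29 to 10.1), 19.6 (18.2 to 21.0) and 13.9 (12.6 to 15.4) in these layers of NHP1, and 6.46 (5.35 to 7.73), 15.1 (13.4 to 17.0) and 12.9 (11.3 to 14.5) in NHP2. The ratio of the inner nuclear to the photoreceptor layer was 2.14 (1.89 to 2.42) for ENO1 in NHP1 and 2.34 (1.88 to 2.93) in NHP2. For ENO2 it was 0.551 (0.504 to 0.601) and 0.534 (0.465 to 0.612). In the Leiden regions of NHP1 the ENO2 ratio was 0.837 (0.762 to 0.918), and with equal weight per spot the ENO1 ratio of NHP2 was 3.54.

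ENO2 accordingly took 79.2% (77.3 to 81.0) of the 1955 enolase UMIs of the photoreceptor layer in NHP1, 49.5% (47.0 to 52.0) of 1531 in the inner nuclear layer and 61.9% (58.9 to 64.8) of 1047 in the ganglion cell layer. In NHP2 it took 83.6% (80.7 to 86.2) of 727, 53.8% (49.7 to 57.9) of 589 and 60.4% (56.5 to 64.2) of 636. The intervals of the 3 layers did not overlap in NHP1, and in NHP2 those of the inner nuclear and ganglion cell layers did. In the Leiden regions of NHP1 the order of these last 2 was turned, with 61.1% (58.1 to 64.1) in the inner nuclear and 55.8% (53.5 to 58.0) in the ganglion cell layer, both below the 78.1% (76.2 to 79.9) of the photoreceptor layer. Among spots of NHP1 with at least 10 enolase UMIs, the share ran from 56.5% to 100% (median 79.1%) in 66 spots of the photoreceptor layer and from 20% to 75% (median 50%) in 47 of the inner nuclear layer. In NHP2 it ran from 50% to 100% (median 89.6%) in 18 spots and from 36.4% to 75.9% (median 56.2%) in 13. The lower quartile of the photoreceptor layer was 70.4% in NHP1 and 86.5% in NHP2, above the upper quartile of the inner nuclear layer, 56.0% and 61.7%.

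**Figure D2:**
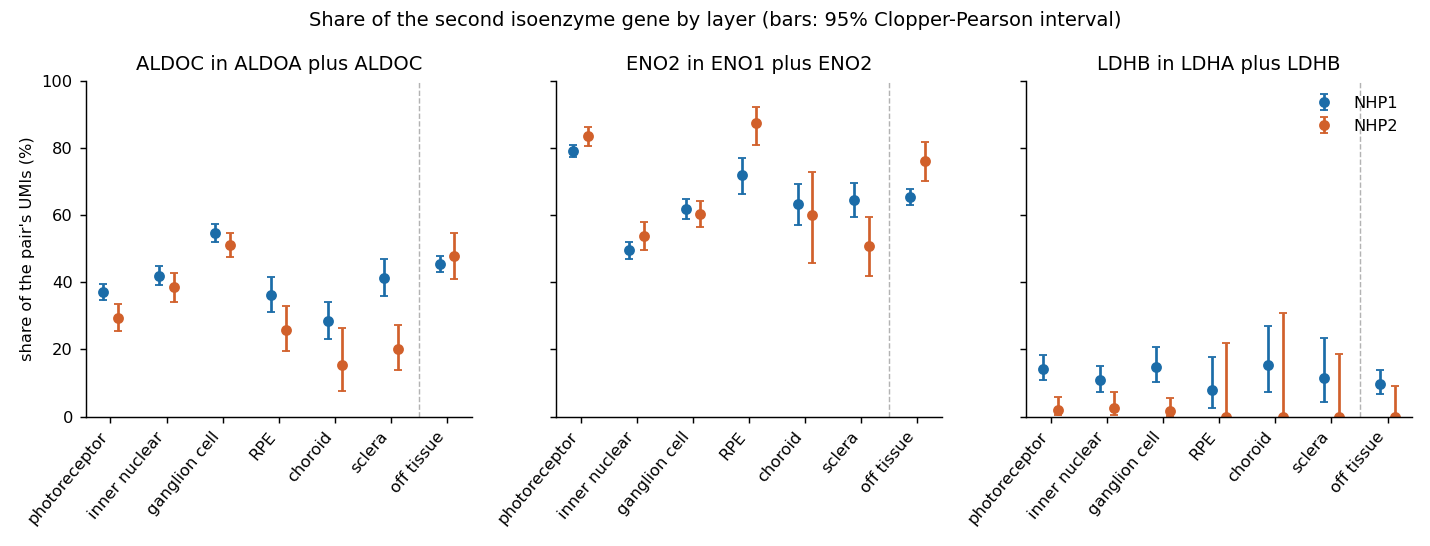
Share of ALDOC, ENO2 and LDHB in the UMIs of their isoenzyme pair (percent, y axis) by layer and in spots off tissue (x axis) of NHP1 (blue) and NHP2 (orange), with 95% Clopper-Pearson intervals. The ENO2 share was 79.2% and 83.6% in the photoreceptor layer and 49.5% and 53.8% in the inner nuclear layer, while the ALDOC share was highest in the ganglion cell layer at 54.8% and 51.1%.

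The neural retina spots were also ordered by their photoreceptor marker share, in 5 bins of equal spot number. These spots and markers are those of the layer calls, so the bins are another view of the same contrast and no independent check of it. In NHP1, with 53 or 54 spots a bin, the ENO2 share of the enolase pair was 53.8%, 53.1%, 60.4%, 75.5% and 86.5% from the lowest to the highest bin. In NHP2, with 13 spots a bin, it was 54.2%, 60.0%, 57.5%, 82.0% and 89.7%. The share lay between 53.1% and 60.4% in the first 3 bins and was higher in the last 2 bins, in both sections. Between the highest and the lowest bin, the ENO2 level differed 1.96-fold (1.75 to 2.20) in NHP1 and 2.42-fold (2.01 to 2.92) in NHP2, while the ENO1 ratio was 0.356 (0.287 to 0.438) and 0.329 (0.217 to 0.484). ALDOC, PFKM and PGK1 were also lower where photoreceptor markers were high, with ratios of 0.608, 0.477 and 0.724 in NHP1 and 0.481, 0.363 and 0.450 in NHP2, all with intervals below 1. HK1, ALDOA and LDHA had ratios of 1.13, 1.19 and 1.18 in NHP1 and of 1.66, 1.12 and 1.27 in NHP2. Of these, the ALDOA interval of NHP1 alone (1.04 to 1.36) excluded 1.

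**Figure D3:**
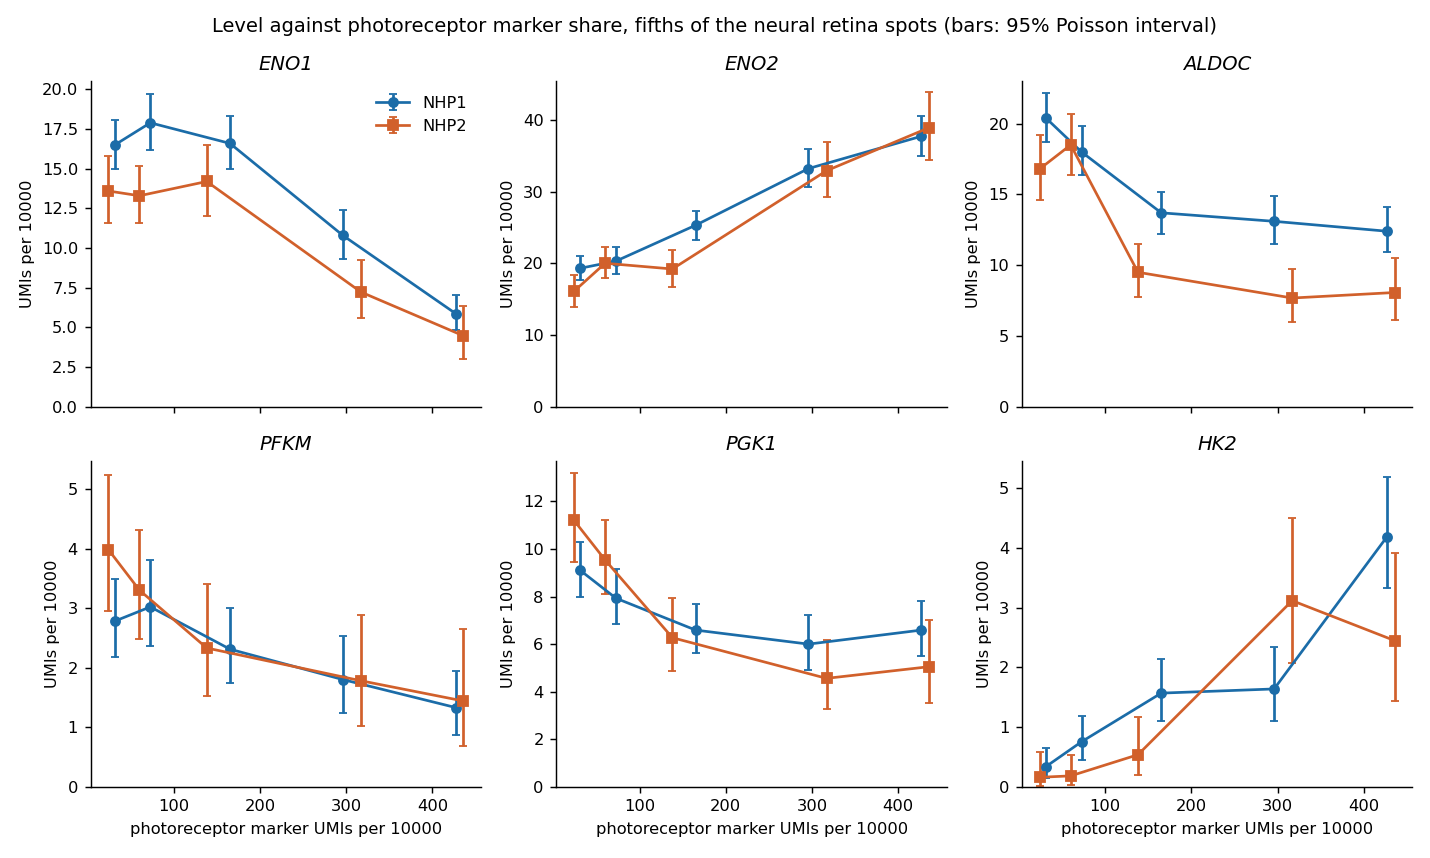
Level (UMIs per 10000, y axes from 0) of ENO1, ENO2, ALDOC, PFKM, PGK1 and, outside the members, HK2 in 5 bins of neural retina spots, against the mean photoreceptor marker UMIs per 10000 of the bin (x axis), for NHP1 (blue circles) and NHP2 (orange squares) with exact 95% Poisson intervals. ENO2 and HK2 were higher and ENO1 lower in the bins with the most photoreceptor marker UMIs.

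Müller glia span the neural retina with cell bodies in the inner nuclear layer. Where their markers were high, ENO1 was higher and ENO2 lower. The 6 Müller glia markers, all found in the reference, made up 30.0 per 10000 in the photoreceptor layer of NHP1, 89.4 in the inner nuclear layer and 56.5 in the ganglion cell layer, and 23.3, 80.8 and 51.1 in NHP2. Of these, GLUL, SLC1A3, AQP4, FRZB and CRABP1 also served to call the inner nuclear layer. Between the neural retina spots with the most and the fewest Müller glia markers, taken as the outer bins of 5, the ENO1 level differed 3.04-fold (2.44 to 3.81) in NHP1 and 3.61-fold (2.17 to 6.44) in NHP2. The ENO2 ratio was 0.435 (0.381 to 0.496) and 0.402 (0.323 to 0.501). ALDOC had ratios of 1.01 and 1.34 and LDHA of 0.863 and 1.09, with intervals that held 1. The part of Müller glia in the ENO1 difference was not tested.

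**Figure D4:**
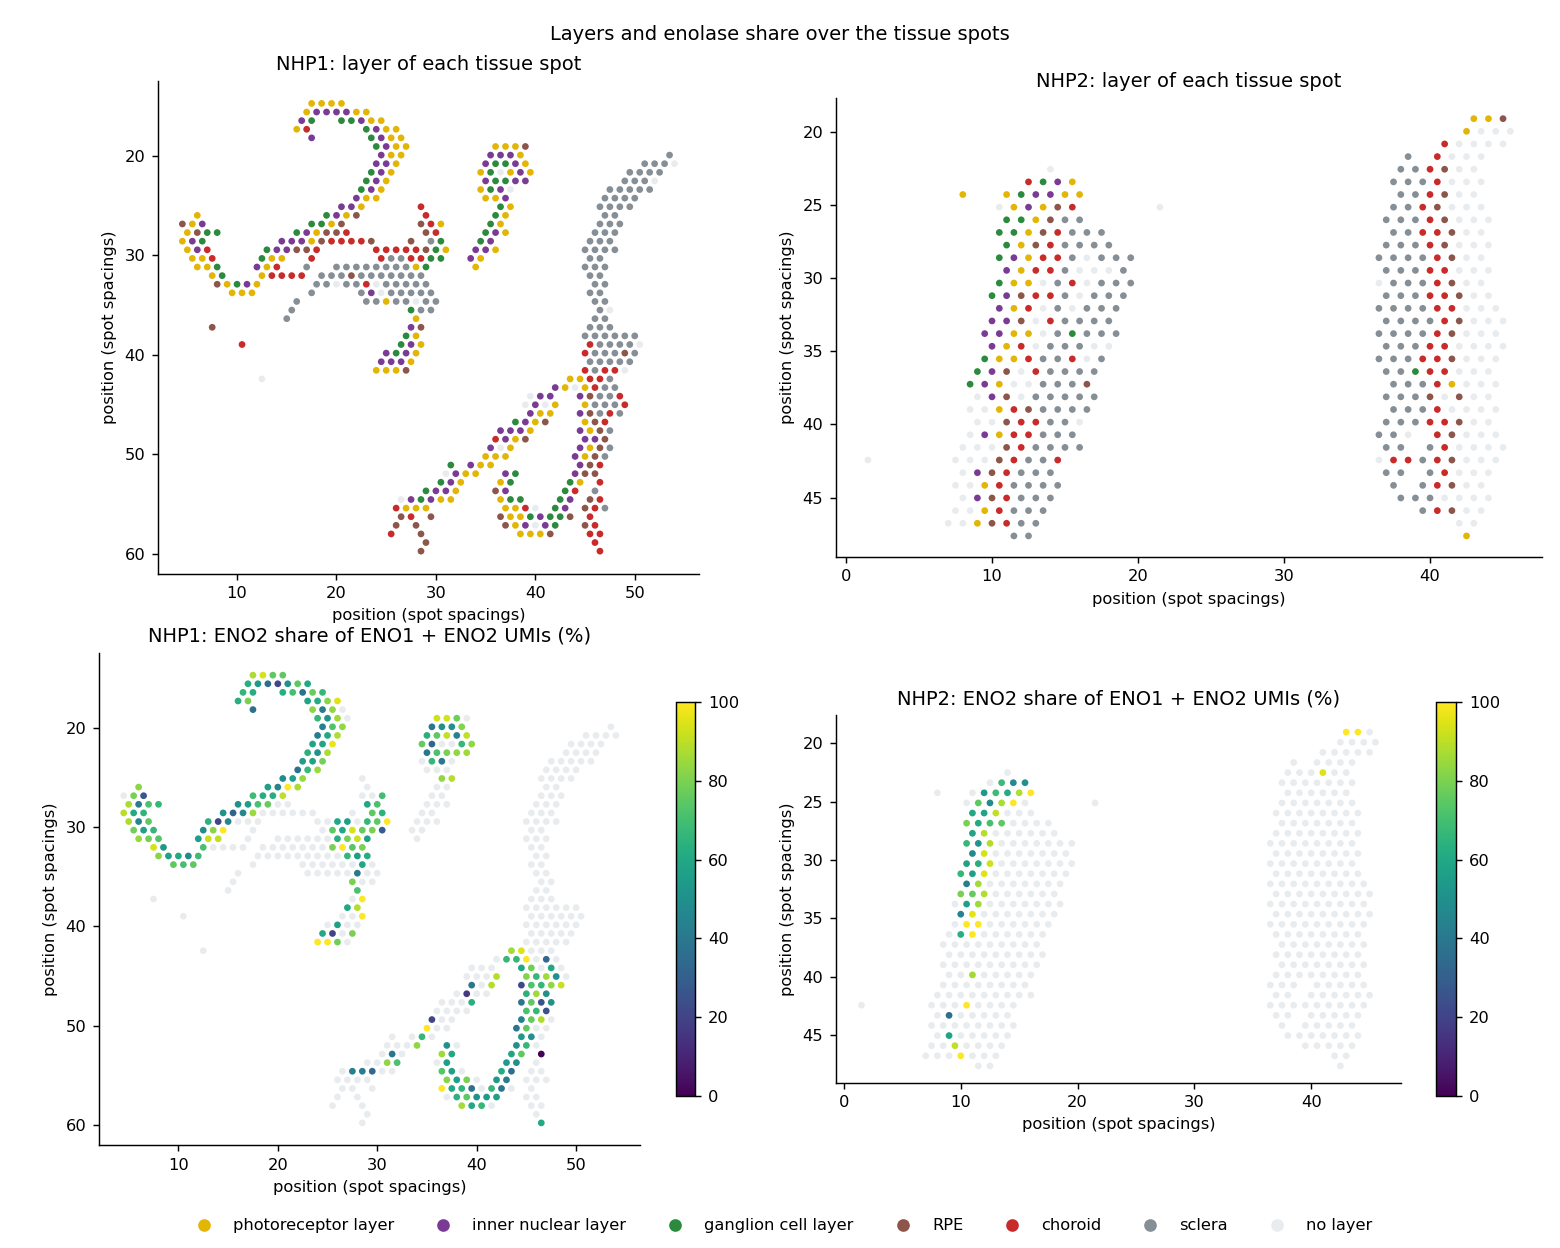
Tissue spots of NHP1 (left) and NHP2 (right) at their place on the slide (axes in spot spacings), coloured by layer (top) and by the ENO2 share of ENO1 plus ENO2 UMIs (bottom, 0 to 100%) where a spot held at least 5 UMIs of the pair, 259 spots in NHP1 and 54 in NHP2; other spots are grey. Over the spots of a layer, the ENO2 share was 79.2% in the photoreceptor and 49.5% in the inner nuclear layer of NHP1, and 83.6% and 53.8% in NHP2.

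LDHA and LDHB encode the subunits of lactate dehydrogenase. LDHA had nearly the same level in the 3 neural layers, and LDHB was scarce. LDHA had 7.06 per 10000 (6.30 to 7.89) in the photoreceptor layer, 6.25 (5.50 to 7.08) in the inner nuclear layer and 5.97 (5.11 to 6.93) in the ganglion cell layer of NHP1. In NHP2 it had 7.87 (6.64 to 9.26), 6.39 (5.28 to 7.67) and 6.33 (5.26 to 7.54). The photoreceptor layer was highest in both sections, but the intervals of the ratios between layers held 1 throughout. LDHB took 14.2% (10.8 to 18.2), 10.8% (7.43 to 15.1) and 14.9% (10.3 to 20.6) of the lactate dehydrogenase UMIs of these layers in NHP1, and 2.03% (0.420 to 5.81), 2.54% (0.527 to 7.25) and 1.59% (0.193 to 5.62) in NHP2. No difference of the LDHB share between layers was detectable at this depth, which was 8 LDHB UMIs in the neural retina of NHP2 and 112 in that of NHP1.

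LDHB was the member that differed most between the animals. Over the neural retina its level was 0.995 per 10000 (0.819 to 1.20) in NHP1 and 0.143 (0.0617 to 0.281) in NHP2, a ratio of 0.144 (0.0605 to 0.293). It ranked 8 from the lowest of 5671 genes in this comparison, in which 3.88% of genes had a ratio of at least 2 or at most 0.5, and LDHB was the 1 member of 9 that did. The other 8 members had ratios between 0.788 (HK1) and 1.20 (PFKM), and LDHA had 1.05 (0.930 to 1.19). The intervals of HK1, ENO1 (0.819, 0.746 to 0.898), ENO2 (0.891, 0.834 to 0.951) and ALDOC (0.836, 0.767 to 0.912) also lay below 1, while the median over all genes was 1.03. Within the photoreceptor layer alone, where 5.45% of genes passed these bounds, the LDHB ratio was 0.139 (0.0278 to 0.430), and no other member passed. None of 8 members passed within the inner nuclear layer, against 5.14% of genes, or within the ganglion cell layer, against 3.98%, where LDHB had too few UMIs. The animals, their libraries and the makeup of the sections differ together and cannot be told apart. The LDHB counts are also uncertain in themselves. The last 400 bases of its RefSeq transcripts, where 3′ reads fall, match 9 other places in the assembly over at least 90% of that length at 95% identity or more, with a highest identity of 99.7%. How reads that fit several of these places were counted was not examined. LDHA had 2 such copies, PGK1 3, ALDOA 1 and ENO1 1, while HK1, PFKM, ALDOC and ENO2 had 0. The part of such copies in the difference between the animals was not tested.

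Over all genes with at least 50 UMIs in the layers compared, the members stood out little by the count past either bound. Between the inner nuclear and the photoreceptor layer, 1 of 9 members in NHP1 and 1 of 8 in NHP2 had a ratio of at least 2 or at most 0.5, ENO1 in both, against 14.9% and 17.7% of all genes. Their median ratio was 0.974 in NHP1 and 1.08 in NHP2, and that of all genes 1 and 0.941. Between the ganglion cell and the inner nuclear layer no member passed in either section, against 7.78% and 11.6% of all genes, and the members' median was 1.16 and 1.12 against 0.883 and 0.933. Between the ganglion cell and the photoreceptor layer 0 of 9 passed in NHP1 and 3 of 8 in NHP2 (ALDOC, PGK1 and PFKM, all higher), against 23.8% and 32.3% of all genes. Of all genes, 241 of 2906 were higher and 452 lower in NHP1, and 179 of 1507 higher and 308 lower in NHP2. The members' median was 0.923 in NHP1 and 1.49 in NHP2, against 0.873 and 0.902 for all genes. LDHB had too few UMIs in NHP2 to enter these counts.

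**Figure D5:**
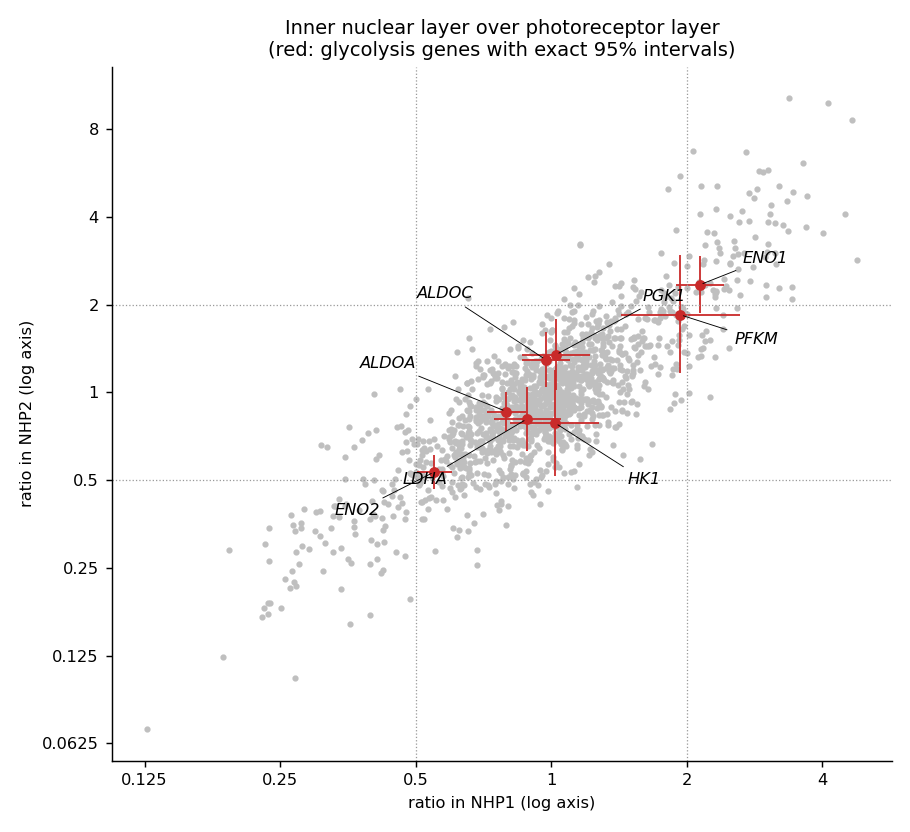
Ratio of the inner nuclear to the photoreceptor layer in NHP1 (x axis) and NHP2 (y axis), both on log axes, for 1531 genes with at least 50 UMIs in each section (grey) and 8 members (red, with exact 95% intervals); dotted lines mark ratios of 0.5 and 2. ENO1 lay at 2.14 and 2.34, ENO2 at 0.551 and 0.534, and the other members except PFKM lay between 0.786 and 1.35.

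Behind the retina, the members were mostly lower than in the neural retina. In the RPE, 1 of 9 members in NHP1 (LDHB, 5 UMIs) and 4 of 8 in NHP2 (PFKM, PGK1, ENO1 and LDHA) were at most 0.5 times their neural retina level, against 22.2% and 28.7% of all genes past either bound. In the choroid these counts were 1 of 9 (ALDOC) and 6 of 8, against 24.1% and 44.9%. In the sclera they were 3 of 9 (PFKM, PGK1 and LDHB) and 8 of 8, against 27.4% and 50.3%. No member was called higher in any of these layers. The shares of all genes count both directions. Lower alone in the RPE were 828 of 4678 genes in NHP1 and 611 of 2639 in NHP2. In the choroid they were 809 of 4743 and 927 of 2637, and in the sclera 1002 of 4776 and 1165 of 2986. ALDOA was about at its neural retina level in the RPE, with ratios of 1.04 (0.906 to 1.20) in NHP1 and 1.12 (0.923 to 1.34) in NHP2. It had 20.9 per 10000 (18.3 to 23.9) in the RPE of NHP1 and 21.0 (17.5 to 24.9) in that of NHP2. That was above the 16.7 (15.7 to 17.9) and 14.7 (12.1 to 17.7) of spots off tissue, with intervals that overlapped narrowly in NHP2. ENO2 had 18.9 (16.3 to 21.7) and 20.5 (17.1 to 24.4) in the RPE, against 21.5 (20.3 to 22.8) and 22.1 (18.9 to 25.7) off tissue. Its share of UMIs was thus not above that of spots off tissue. Counted per spot, the RPE held 4.19 ENO2 UMIs (3.63 to 4.81) in NHP1 and 3.50 (2.92 to 4.17) in NHP2, against 0.263 and 0.0422 off tissue. Photoreceptor markers made up 168 and 198 per 10000 of the RPE spots' UMIs.

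ENO2 took 72.0% (66.4 to 77.2) of enolase UMIs in the RPE of NHP1 and 87.5% (81.0 to 92.4) in that of NHP2. In the sclera it took 64.6% (59.4 to 69.6) and 50.7% (42.0 to 59.5), in the choroid 63.4% (57.0 to 69.4) and 60.0% (45.9 to 73.0), and off tissue 65.4% (63.1 to 67.7) and 76.2% (70.1 to 81.7). In NHP1 the intervals of the RPE and the sclera overlapped, and that of the sclera held the share of the spots off tissue. In NHP2 the share of the sclera was below that of the RPE and of the spots off tissue. The ALDOC share of the sclera was 41.4% (36.0 to 47.0) in NHP1 and 20% (13.8 to 27.4) in NHP2, against 45.6% and 47.9% off tissue. Photoreceptor markers made up 106 per 10000 of the sclera spots' UMIs in NHP1 and 26.7 in NHP2, and in the sclera ENO2, ALDOC and LDHA had NHP2 to NHP1 ratios of 0.289 (0.217 to 0.381), 0.212 (0.137 to 0.319) and 0.386 (0.211 to 0.679). These were 3 of 6 members compared there, in a comparison where 29.9% of genes passed. The part of retinal RNA in the sclera spots of NHP1 was not tested.

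The other genes of the path, its transporters and its regulators formed a list of 38, all in the reference. Between the inner nuclear and the photoreceptor layer, 16 had enough UMIs in NHP1, of which 1 was higher and 2 lower past the bounds, where 14.9% of all genes were past them. In NHP2 13 had enough, of which 3 were higher and 3 lower, where 17.7% of all genes were past them. HK2 was lower in the inner nuclear layer, with a ratio of 0.270 (0.175 to 0.405) in NHP1 and 0.104 (0.0325 to 0.261) in NHP2. PFKFB2, whose product makes and removes the activator of phosphofructokinase, was lower too (0.398, 0.251 to 0.614, and 0.311, 0.169 to 0.543). SLC2A1, the glucose transporter GLUT1, went with ENO1 and was higher in the inner nuclear layer (2.32, 1.96 to 2.77, and 2.22, 1.70 to 2.92). TPI1, the gene of triose phosphate isomerase, had a ratio of 1.25 (1.06 to 1.47) in NHP1, within the bounds, and 2.38 (1.85 to 3.10) in NHP2. HK2 and PFKFB2 were likewise below 0.5 between the ganglion cell and the photoreceptor layer in both sections, as was SLC16A1, which encodes the lactate transporter MCT1 (0.436 and 0.481).

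In the outer layers more genes of the list were lower than higher past the bounds, against the neural retina. The same held over all genes, so this direction was not particular to the list. In the RPE 828 of all genes were lower and 211 higher in NHP1, and 611 and 147 in NHP2. In the choroid these counts were 809 and 335 in NHP1, and 927 and 258 in NHP2. In the sclera they were 1002 and 309 in NHP1, and 1165 and 336 in NHP2. In the RPE 2 were lower and 1 higher of 19 in NHP1, and 6 lower and 2 higher of 17 in NHP2, where 22.2% and 28.7% of all genes were past the bounds. In the choroid 6 were lower and 1 higher of 20 in NHP1 and 11 lower and 0 higher of 15 in NHP2, against 24.1% and 44.9% of all genes. In the sclera 4 were lower and 1 higher of 21 in NHP1 and 14 lower and 3 higher of 19 in NHP2, against 27.4% and 50.3%. Of the higher ones, in the RPE BSG, the partner protein that lactate transporters need at the membrane, was 2.16 (1.83 to 2.53) and 3.38 (2.75 to 4.12) times its neural retina level in NHP1 and NHP2, and SLC16A1 was 1.59 (1.07 to 2.30) times, within the bounds, and 4.10 (2.75 to 6.01) times. In the sclera TIGAR, whose product lowers the flux through glycolysis, was 3.67 (2.02 to 6.42) and 7.77 (4.86 to 12.7) times its neural retina level. It was the only gene of the list past the upper bound there in NHP1. In NHP2 PFKL (2.19, 1.67 to 2.85) and BSG (2.06, 1.72 to 2.47) were past it as well. The RPE levels of BSG were 17.2 and 22.3 per 10000, above the 9.04 and 8.06 of spots off tissue. The TIGAR levels of the sclera were 1.43 (0.864 to 2.24) and 4.02 (3.02 to 5.25), against 0.726 (0.514 to 0.997) and 0.910 (0.366 to 1.88) off tissue, so they were above that background beyond counting error in NHP2, while the intervals of NHP1 overlapped.

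Likeness between genes was described over the 324 tissue spots of NHP1 with at least 1000 UMIs, as the Pearson correlation of log-scaled levels among 1254 genes. The 3 genes most like ENO2 were CKB (0.68), GNGT1 (0.58) and RDH12 (0.57). CKB encodes the brain creatine kinase, GNGT1 the gamma subunit of rod transducin and RDH12 a retinol dehydrogenase of photoreceptors. Those most like ENO1 were WIF1 (0.51), MGARP (0.46) and TF (0.46), of which WIF1 encodes an inhibitor of Wnt signalling and TF transferrin. ALDOC was most like ENO2 (0.48), CKB (0.44) and GAPDH (0.42). LDHA was most like NDUFA4 (0.35), PCBP4 (0.34) and PCMTD2 (0.33), and ALDOA reached 0.29 at most. LDHB had too few UMIs. The spots share 1 library and differ in depth, so these values order genes and carry no test. The members' spatial structure also varied: by the authors' Moran's I, a score of how alike neighbouring spots are, ENO2 ranked 19 of 13804 genes in NHP1 (0.405) and 123 of 12542 in NHP2 (0.143). ALDOC ranked 41 (0.315) and 60 (0.187), LDHA 107 (0.209) and 106 (0.153), while HK1 ranked 1129 and 1186.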

How the data were processed

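For each section the deposited files hold a matrix of unnormalized UMI counts, which the authors made with Space Ranger 2.1.0 on Mmul_10 plus the transgenes, the place of every spot and whether it lay under tissue, and the authors' Moran's I per gene, a score. The labels call the tissue fresh frozen in one field and fixed in another. Members and lists were chosen with earlier results of these data known. The summed counts of the deposited table equalled those of the matrix for all 13804 and 12542 genes. A spot took the layer whose markers had the highest share of its UMIs relative to the section's tissue spots, given at least 3 marker UMIs and a score of at least 1. Of the markers, CNGB1, RCVRN, CABP5, SLC6A13, HBB and HBA2 had no row under these names. Of the rows without a gene name, 521 were named from a table of gene IDs. Photoreceptor, inner nuclear and ganglion cell layers form the neural retina. Counts were summed over spots and scaled to 10000 UMIs (Python 3.11.15, numpy 2.4.6, scipy 1.17.1), and ratios were taken for genes whose 2 groups summed to 50 UMIs or more, and called at 2 or 0.5. Intervals are exact at 95%. Spots are not replicates, so no test was run. A count of 0 allows up to 3 UMIs. No doublet caller was run. The named genes were all members, the wider list of 38 by counts, and the 3 genes most like each gene of the isoenzyme pairs. The 3′ ends were compared with the genome by blastn 2.17.0. The ratio and intervals were tested on counts simulated with counting error only. This checks the computation and not whether the intervals cover the spread between spots. Alternatives were Leiden regions (scanpy 1.11.5, leidenalg 0.10.2) computed without the members, clearer layer calls, a minimum of 200 UMIs per spot, another denominator, equal weight per spot, leaving out a spot or the smaller tissue pieces, a background of spots more than 3 spacings away from tissue and, chosen after seeing the data, an inner nuclear layer called without Müller glia markers.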

Additional observations from a re-analysis of the deposited data

Results flagged for a closer look

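Of 48 pairs of a member and a contrast between layers that both animals allowed, 5 had ratios on opposite sides of 1 in the 2 animals. The difference between the animals was not tested in any of them, since each has 1 section. ALDOC in the inner nuclear over the photoreceptor layer had a ratio of 0.974 (0.862 to 1.10) in NHP1 and 1.29 (1.04 to 1.61) in NHP2. HK1 had 1.02 (0.809 to 1.28) and 0.786 (0.516 to 1.19) in the same contrast, and 0.666 (0.493 to 0.892) and 1.02 (0.665 to 1.58) in the ganglion cell over the inner nuclear layer. In the RPE over the neural retina HK1 had 1.04 (0.723 to 1.46) and 0.620 (0.291 to 1.17). PFKM in the ganglion cell over the inner nuclear layer had 0.769 (0.563 to 1.04) in NHP1 and 1.13 (0.784 to 1.64) in NHP2. In each of the 5, the interval of at least 1 animal held 1.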

How the results depend on the processing

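No paired analysis was possible because each animal gave 1 section. Over 25 shares and ratios, no ratio crossed 1 under an alternative that gave it, but Leiden regions turned the order of layers in 2 shares of NHP1. All 25 stayed within their intervals with at least 200 UMIs per spot, without mitochondrial and the 50 most abundant genes, without the spot with the most UMIs, on the tissue piece with the most UMIs, and without Müller glia markers for the inner nuclear layer. Leiden regions put 61.2% of tissue spots of NHP1 and 46.0% of NHP2 in the same layer, and left no photoreceptor or ganglion cell layer in NHP2, so 9 of the 25 values could not be given. Of the others, the ENO2 share of NHP1 was 61.1% in the inner nuclear and 55.8% in the ganglion cell layer, the reverse of the reported order of these 2 layers, and the inner nuclear share passed from under to over 50%. Its ALDOC share was 34.9% in the inner nuclear layer, below the 39.5% of the photoreceptor layer and so the other reversed order, and 51.2% in the ganglion cell layer. The NHP1 ratios of the inner nuclear to the photoreceptor layer were 0.837 for ENO2 and 1.29 (0.887 to 1.86) for PFKM, and PGK1 in the ganglion cell over the inner nuclear layer was 1.32. In NHP2 the inner nuclear layer shares were 45.5% for ALDOC and 57.9% for ENO2. With a layer score at least 2 times the next, most contrasts were larger: the ENO2 share was 83.1% and 87.5% in the photoreceptor layer of NHP1 and NHP2 and 46.9% in the inner nuclear layer of NHP1, the ratio of these layers was 2.46 and 2.99 for ENO1 and 0.443 and 0.447 for ENO2, ALDOC and PGK1 in the ganglion cell over the inner nuclear layer were 2.19 and 1.93 in NHP1, and the ALDOC share of the ganglion cell layer of NHP2 was 56.2%. With equal weight per spot, the photoreceptor layer shares were 40.1% and 34.1% for ALDOC and 81.5% and 88.0% for ENO2, the ALDOC share of the inner nuclear layer of NHP1 was 45.2%, PFKM in the inner nuclear over the photoreceptor layer of NHP1 was 3.03, and ENO1 of NHP2 was 3.54. Beyond 3 spacings from tissue, the members' level off tissue in NHP1 was 88.8 per 10000, against 79.9 over all spots off tissue. The inner nuclear layer of NHP1, at 89.2 (86.3 to 92.2), was thus not above those far spots beyond counting error. Of 108 levels by layer, 17 left their interval with the clearer layer calls (6 upwards), 32 with equal weight per spot (9 upwards), 6 on the largest piece (5 upwards), 2 without the top spot (0 upwards) and, as fewer UMIs enter the denominator, 49 without the abundant genes (49 upwards). With Leiden regions 22 of 81 did (11 upwards). The cause of the other shifts was not tested. With 8 LDHB UMIs in the neural retina of NHP2, depth limits any statement on LDHB by layer.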
